A study of Rattus norvegicus with 15 samples.

Results

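The genes described here carry sodium, chloride and water across the alveolar epithelium of the lung. They are the 3 subunits of the epithelial sodium channel ENaC (Scnn1a, Scnn1b and Scnn1g), 2 beta subunits of the Na,K-ATPase (Atp1b1 and Atp1b3), the water channels Aqp1 and Aqp4, and the chloride channel Cftr, 8 genes in all. They were chosen by name, and where a gene had several probes the brightest over all arrays was to be read. Of the 8 genes, 7 have a probe that the probe table names, 1 probe each, among 13337 genes named on the array. Cftr was not analysed here.

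Alveoli are kept nearly dry by moving sodium out of the airspace. Sodium enters the epithelial cell through ENaC on the side that faces air, the Na,K-ATPase pumps it out on the opposite side, chloride follows, and water goes with the salt, in part through aquaporins. Both the cuboidal alveolar type 2 (AT2) cells, which make surfactant, and the thin type 1 (AT1) cells, which cover most of the surface, are known to carry ENaC and the pump.

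RNA came from AT2 cells of male rats, either freshly isolated (D0) or left to differentiate in culture for 2, 4, 6 or 8 days (D2, D4, D6 and D8), with no other treatment at any day. D8 cells are called AT1-like, which describes cells in a dish and not AT1 cells taken from a lung. Each day had 3 Illumina RatRef-12 arrays, 15 in all, whose labels do not say which purification an array came from, so the p-values measure only the spread between these arrays. In every day arrays 1 and 2 lay on slide 1. Array 3 lay on slide 2 at D2 and D4 and on slide 3 at D0, D6 and D8.

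Raw signals average the beads of each probe. Probes with a detection p below 0.01, set against the negative controls of their array, count as detected. Per array 7615 to 9787 of 22523 probes were detected, and the median raw signal lay between 170.8 and 246.8. With 3 arrays a day, precision is limited. Levels below are raw signals or, where so named, log2 values after variance stabilizing normalization (VSN). Changes are differences of the VSN log2 means, tested with limma, and a change was called at 0.05 or less after Benjamini-Hochberg adjustment across all probes. All 10 AT2 cell markers with a probe were detected on every array of D0, and all fell from D0 to D8, by a median of 5.07 on the log2 scale, Napsa by 1.61 and Lpcat1 by 2.44 among them. Of 12 AT1 cell markers 7 rose, with Pdpn up by 0.92, and Hopx at 0.02 did not pass the test (adjusted p = 0.976). Of 7 airway epithelial markers 5 fell and 0 rose, Scgb1a1 by 4.01 and Scgb3a2 to a level at least 60.9-fold lower. Of 12 macrophage and leukocyte markers 3 rose, Aif1 by 1.83 and Tyrobp by 2.59 among them, and 2 fell.

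Scnn1b and Scnn1g, which code for the beta and gamma subunits of ENaC, are neighbours on rat chromosome 1, with 0 RefSeq gene starts between theirs. Among the 7464 named genes detected on at least 3 arrays each was the other's nearest in profile, for Scnn1b in a near tie with Mprip, by a measure given further on. The 250 bases before the start of each gene are therefore shown, from RefSeq for the GRCr8 assembly, read 5′ to 3′ on the plus strand and ending at the base before the start, with capitals marking a match to a searched motif.
Scnn1b, chr1:185861126-185861375: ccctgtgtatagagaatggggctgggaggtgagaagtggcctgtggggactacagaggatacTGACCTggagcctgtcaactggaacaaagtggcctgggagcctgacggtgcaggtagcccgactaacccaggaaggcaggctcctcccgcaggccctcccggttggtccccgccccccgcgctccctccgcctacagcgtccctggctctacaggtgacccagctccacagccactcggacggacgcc
Scnn1g, chr1:185735975-185736224: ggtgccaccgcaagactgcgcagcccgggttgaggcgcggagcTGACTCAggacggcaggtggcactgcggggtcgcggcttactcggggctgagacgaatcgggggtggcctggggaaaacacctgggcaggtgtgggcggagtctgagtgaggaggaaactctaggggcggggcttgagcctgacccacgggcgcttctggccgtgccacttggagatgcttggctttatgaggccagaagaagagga

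The windows were searched for 3 motifs on both strands, without regard to overlap of the motifs with one another. AGGTCA, which nuclear receptors bind, singly or repeated, matched the reverse strand of the Scnn1b window, printed there as TGACCT, 188 bases before the start, and is in 14.1% of all 33469 promoter windows of this length. TGANTCA, an AP-1 motif, matched the Scnn1g window as TGACTCA 207 bases before the start, and is in 6.34% of all windows. AGAACA, an arm of the glucocorticoid response element, is in 17.5% of all windows and matched neither. The 2 windows hold no searched motif in common. Both are 65.6% G and C, against a median of 51.2% over all windows. These matches describe the letters of the windows only. The windows of Aqp1, Aqp4 and Atp1b3 held no match to these motifs. Scnn1a and Atp1b1 were not searched.

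Over the whole course 5 of the 7 genes measured were higher at D8 than at D0, namely the 3 ENaC subunits, Aqp1 and Aqp4, and Atp1b3 was lower. Atp1b1 did not pass the test between these days. Of all probes, 18.0% were called between D8 and D0, 9.91% higher and 8.10% lower, and 35.5% of the probes detected on at least 3 arrays were called. All 7 genes passed the F test over the 5 days (adjusted p 1.93e-07 to 0.0140), as did 18.2% of all probes. Since cells were measured in bulk, a change in the share of a cell type and a change in RNA per cell cannot be told apart.

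**Figure D1:**
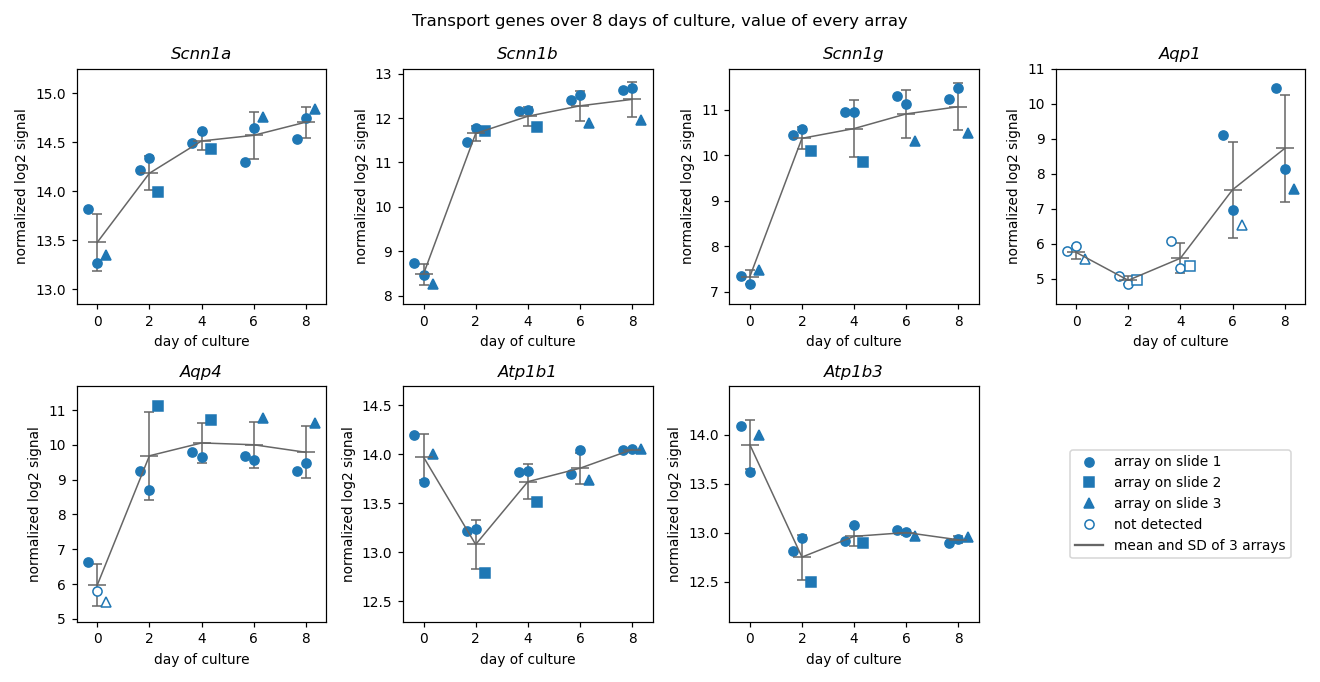
VSN log2 signal of each of the 7 measured genes on every array (points, shaped by slide, open where the probe was not detected) against day of culture, with the mean and SD of the 3 arrays of a day as a line with bars; each panel has its own log2 axis. Scnn1b, Scnn1g and Aqp4 step up between D0 and D2, Aqp1 is detected only at D6 and D8, and Atp1b1 dips at D2.

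Scnn1a codes for the alpha subunit, which the channel needs for conductance. Its raw signal was 12034, 9019 and 7069 on arrays 1, 2 and 3 of D0, and 25089, 19981 and 22340 at D2. D4 gave 29861, 28554 and 20641, D6 gave 24312, 30349 and 22018, and D8 gave 24089, 29753 and 21072. Every array of D2 to D8 lay above every array of D0, and the days from D4 on overlapped. Of all probes, 29.6% had no overlap between D8 and D0 and 30.3% none between D2 and D0. The mean log2 value was 13.48 ± 0.29 (SD, n = 3) at D0 and 14.70 ± 0.16 at D8. The rise from D0 to D8 was 1.23 on the log2 scale (SE 0.21, adjusted p = 0.000608), or 2.34-fold (95% interval 1.72 to 3.18), with 1.10 between the arrays of slide 1 and 1.48 between those of slide 3.

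By D2 Scnn1a had risen by 0.71 (SE 0.21, adjusted p = 0.0269). Of all probes, 18.6% were called between D2 and D0, 10.3% higher and 8.25% lower. The call of Scnn1a at D2 is not kept when some single arrays are left out. The adjusted p was 0.0890 without array 2 of D0, 0.0785 without array 3 of D0, 0.0799 without array 1 of D2 and 0.101 without array 2 of D2. With only the days compared in the fit it was 0.143.

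Scnn1b codes for the beta subunit, which raises the current of the channel at the membrane. Its raw signal was 478, 454 and 346 on the arrays of D0, and 3819, 3504 and 4752 at D2. D4 gave 6010, 5379 and 3449, D6 gave 6676, 7035 and 3142, and D8 gave 6566, 7174 and 2980. Array 3 was the lowest of its day at D4, D6 and D8, and no array of a later day came near those of D0. The mean log2 value went from 8.48 ± 0.24 at D0 to 11.65 ± 0.17 at D2, and the means of D4, D6 and D8 were 12.04 ± 0.21, 12.28 ± 0.33 and 12.42 ± 0.40 (SD, n = 3 each).

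From D0 to D8 Scnn1b rose by 3.94 on the log2 scale (SE 0.25, adjusted p = 5.96e-08), or 15.3-fold (95% interval 10.6 to 22.1). The rise was 4.05 within slide 1 and 3.70 within slide 3. From D0 to D2 alone it was 3.17 (adjusted p = 6.11e-07), and both comparisons share the arrays of D0. Between D2 and D8 the difference was 0.77 (SE 0.25, adjusted p = 0.159), with no overlap between the arrays of the 2 days in VSN log2 values, against 18.5% of all probes without overlap. In raw signal they did overlap, as array 3 of D8 lay below every array of D2. That difference was 1.03 within slide 1, where it passed the test (adjusted p = 0.0179), as it did with slide as a term (adjusted p = 0.0159) or as a random block, and with limma's neqc normalization, quantile normalization or the values as the authors normalized them.

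Scnn1g codes for the gamma subunit. Its raw signal at D0 was 261.3, 261.8 and 260.5, detected on each array but close to the dimmest detected probes. D2 gave 1963, 1579 and 1668, and D4 gave 2689, 2386 and 1009. D6 gave 3147, 2768 and 1134, and D8 gave 2573, 3200 and 1163. As for Scnn1b, array 3 was the lowest at D4, D6 and D8, and for both genes it then lay below every array of D2 in raw signal. The mean log2 value was 7.33 ± 0.15 at D0, 10.37 ± 0.24 at D2 and 11.07 ± 0.51 at D8 (SD, n = 3 each).

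Scnn1g rose by 3.74 from D0 to D8 (SE 0.35, adjusted p = 2.73e-06), or 13.4-fold (95% interval 7.95 to 22.4). Within slide 1 the rise was 4.10 and within slide 3 it was 3.02. It was 2.88 with quantile normalization, 3.0 with arrays scaled only to a common median and 3.10 in the authors' normalized values, and passed the test each time. By D2 it was 3.04 (adjusted p = 2.15e-05), or 2.26 with quantile normalization and 2.43 in the authors' values. From D2 to D8 the difference of 0.69 (SE 0.35, adjusted p = 0.472) was not called, and in raw signal the arrays of these days overlapped. On the arrays of slide 1 alone it was 0.85 and passed the test (adjusted p = 0.0365). The part of the slide or of the preparation in the lower values of array 3 was not tested.

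**Figure D2:**
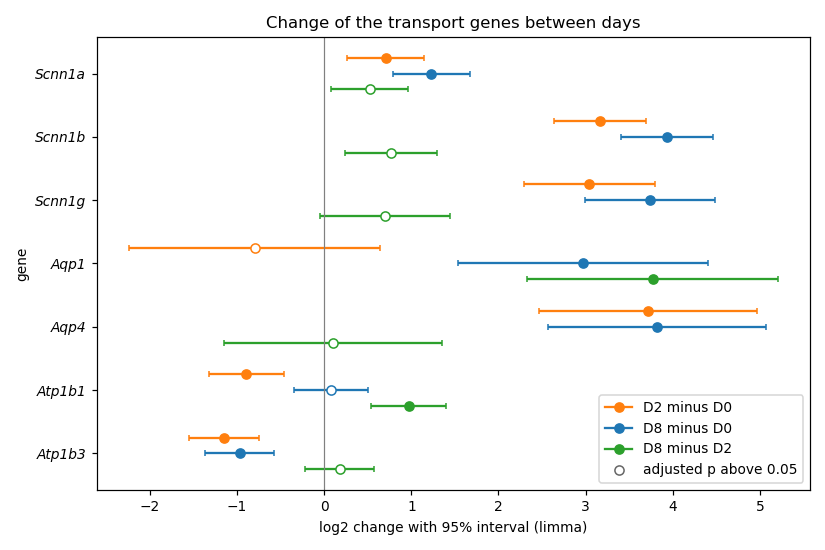
log2 change of each measured gene with its 95% interval from limma, D2 minus D0 (orange), D8 minus D0 (blue) and D8 minus D2 (green), open points where the adjusted p is above 0.05. The blue and orange points of Scnn1b, Scnn1g and Aqp4 lie close together, between 3.04 and 3.94, and Aqp1 and Atp1b1 are the genes with a filled green point.

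The beta subunit of the Na,K-ATPase brings the catalytic alpha subunit to the membrane, and the rat has several of them, of which Atp1b1 and Atp1b3 were measured. Both had high signals at isolation and fell in the first 2 days, after which they went different ways. The raw signal of Atp1b1 was 15590, 12302 and 10993 at D0 and 12562, 9356 and 9809 at D2. D4 gave 18670, 16653 and 11010, D6 gave 17159, 19924 and 10895, and D8 gave 17217, 18365 and 12282. In log2 VSN values every array of D2 lay below every array of the other days.

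The mean log2 value of Atp1b1 was 13.97 ± 0.24 at D0 and 13.08 ± 0.25 at D2. The means of D4, D6 and D8 were 13.72 ± 0.18, 13.86 ± 0.16 and 14.05 ± 0.0045 (SD, n = 3 each). It fell by 0.89 from D0 to D2 (SE 0.20, adjusted p = 0.00502), or 0.73 within slide 1. It rose by 0.97 from D2 to D8 (SE 0.20, adjusted p = 0.0181), or 0.82 within slide 1. Of all probes, 2.58% were called between D2 and D8, 1.16% higher. D8 and D0 overlapped, with a difference of 0.08 (SE 0.20, adjusted p = 0.881) and a 95% interval of -0.35 to 0.50.

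The rise of Atp1b1 from D2 to D8 did not pass the test without array 3 of D2 (adjusted p = 0.0708) or without array 1, 2 or 3 of D8 (0.0575, 0.0770 and 0.0565). Nor did it pass on the arrays of slide 1 alone (adjusted p = 0.0617), with only the days compared in the fit (adjusted p = 0.115) or with median scaling (0.75, adjusted p = 0.233). With every array scaled only to a common median, the fall by D2 was 0.48 (adjusted p = 0.276), and with only D0 and D2 fitted its adjusted p was 0.0663. Between D2 and D4 the difference was 0.64 (SE 0.20, adjusted p = 0.176), in a step where 1.39% of all probes were called.

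Atp1b3 was lower throughout culture. Its raw signal was 14532, 11488 and 10977 at D0, 9540, 7715 and 8061 at D2, and 10118, 9974 and 7223 at D4. It was 10153, 9858 and 6471 at D6 and 7841, 8575 and 5843 at D8. No array of D2 to D8 reached the lowest array of D0, in raw signal or in log2. The mean log2 value was 13.90 ± 0.25 at D0 and 12.75 ± 0.23, 12.96 ± 0.10 and 12.93 ± 0.03 at D2, D4 and D8 (SD, n = 3 each), and the arrays of D6 lay between 12.97 and 13.03.

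Atp1b3 fell by 1.15 from D0 to D2 (SE 0.19, adjusted p = 0.000447) and by 0.97 from D0 to D8 (SE 0.19, adjusted p = 0.00173), comparisons that share the arrays of D0. At D8 it was 1.96-fold lower than at D0, with a change of -0.94 within slide 1 and -1.04 within slide 3. From D2 to D8 the difference was 0.18 (adjusted p = 0.841), with a 95% interval of -0.22 to 0.58 and overlapping arrays.

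Aqp4 is a water channel of basolateral membranes, best known from brain astrocytes. Its raw signal at D0 was 208, 181 and 171, and only array 1 was detected. D2 gave 934, 519 and 3193, and D4 gave 1294, 1039 and 1722. D6 gave 1126, 1020 and 1508, and D8 gave 750, 904 and 1271. From D2 on it was detected on every array, and array 3 was the brightest of its day each time, opposite to Scnn1b and Scnn1g from D4 on. The log2 mean was 5.97 ± 0.60 at D0 and 9.69 ± 1.27 at D2, and D4 and D8 had means of 10.05 ± 0.59 and 9.79 ± 0.74 (SD, n = 3 each). The arrays of D6 lay between 9.55 and 10.76 on the log2 scale.

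Aqp4 rose by 3.72 from D0 to D2 (SE 0.58, adjusted p = 0.000333) and was 3.82 above D0 at D8 (SE 0.58, adjusted p = 0.000264). Only array 1 of D0 measured it above background, and no fold is given against that day. The size of the change moved with the normalization, while the call did not. D8 lay 2.34 above D0 with median scaling, 2.39 above with quantile normalization and 2.55 above in the authors' values. Without array 3 of D2, the brightest, the rise by D2 was 3.0 (adjusted p = 0.00102). Within slide 1 the D8 value lay 3.15 above D0, and within slide 3 it lay 5.16 above. D2 and D8 differed by 0.10 (adjusted p = 0.988), with a 95% interval of -1.15 to 1.35.

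Aqp1 is a water channel known from lung endothelium, mesothelium and red cells. It came late. Its raw signal was 171, 186 and 172 at D0, 174, 145 and 209 at D2 and 228, 176 and 184 at D4, with 0 arrays detected on any of these days. It was 798, 282 and 210 at D6, where arrays 1 and 2 were detected, and 1550, 442 and 269 at D8, where all 3 were. Array 1 was far above the other arrays of both days.

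Against a day with no detected array, a fold is a lower bound where every array of the brighter day was detected. It is the mean of the brighter day over the mean, across the arrays of the dimmer day, of the probe's own value or, if higher, the lowest value among the detected probes of that array. Aqp1 was at least 4.09-fold higher at D8 than at D0 (measured log2 means 8.73 ± 1.52 and 5.76 ± 0.19, SD, n = 3, adjusted p = 0.00554). It was at least 5.26-fold higher at D8 than at D2 (measured mean at D2 4.96 ± 0.11, adjusted p = 0.00745). Within slide 1 the measured difference from D0 to D8 was 3.44, and within slide 3 it was 2.03.

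The size of the Aqp1 change rests in large part on array 1 of D8. Without it the measured log2 change from D0 is 2.1 (adjusted p = 0.0212), and the bounds, added after the data were seen, are 2.25-fold over D0 and 2.89-fold over D2. With arrays scaled only to a common median the change from D0 was 1.67 (adjusted p = 0.0580), and that from D2 was 1.87 (adjusted p = 0.123). It was 1.69 from D0 with quantile normalization and 1.80 in the authors' values, both past the test. With only D2 and D8 fitted the adjusted p of their difference was 0.0535. Between D4 and D6 the calculation used for the bounds gave 2.33-fold for Aqp1. As array 3 of D6 was not detected, this fold is not a lower bound. The change had an unadjusted limma p of 0.0111 and did not pass the test after adjustment. In the steps from D4 to D6 and from D6 to D8 limma called 0 of 22523 probes, with 434 and 435 at an unadjusted p under 0.05. Both counts are below a share of 0.05 of all probes, which is what unchanged probes alone would give.

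Some markers of other cells rose as well, and others fell. Before Aqp1 was detected, the mesothelial marker Msln went from 7.09 to 7.87 at D0 to 9.15 to 9.82 at D2 in log2. Col1a1 went from 6.75 to 6.87 at D0 to 8.30 to 9.02 at D2, where 0 fibroblast markers were called against D0. The brighter Col1a2 overlapped between these days, at 10.96 to 11.47 at D0 and 10.49 to 11.62 at D2. The median change of the fibroblast and smooth muscle markers from D0 to D2 was 0.19. Of 8 fibroblast and smooth muscle markers with a probe, 2 rose from D0 to D8, Col1a1 by 4.59 (adjusted p = 0.00321) and Col1a2 by 3.06 (adjusted p = 0.00207), both chains of type I collagen. The summed raw signal of the 8 markers was 3028 to 4164 at D0, 3269 to 6636 at D2 and 7204 to 36417 at D4. At D6 it was 51673, 18090 and 7776 on arrays 1, 2 and 3, and at D8 53425, 26818 and 9496, in the same order of arrays as Aqp1. Of these markers 3 were detected on no array of D0, and at D8 every one was detected on at least 1 array. Pdgfra, named after its values were seen, was detected on 1 array of all 15, array 1 of D8.

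Of 2 mesothelial markers, Msln rose by 3.26 (adjusted p = 0.000104), with log2 values of 11.60, 10.70 and 9.71 on arrays 1, 2 and 3 of D8, and Wt1 was detected on 0 arrays. The summed raw signal of the pair was 388 to 438 at D0 and 875 to 3447 at D8. Of 7 endothelial markers, Cdh5, Tek, Emcn and Vwf, named after their values were seen, were detected on 0 arrays. On array 1 of D8 3 of the 7 were detected, and on each other array 1 or 2. Esam was detected on all 15 arrays and had a change of 0.67 (adjusted p = 0.0517). Cldn5 fell by 2.65 (adjusted p = 2.84e-07), and the summed raw signal was 2209 to 3780 at D0 and 3008 to 4335 at D8. The red cell genes Hba-a1 and Hbb fell by 8.17 and fell by 8.28 respectively, and the summed raw signal of 6 erythroid markers went from 32762 to 50497 at D0 down to 1011 to 2122 at D8. The part of these cells in the Aqp1 change, and in the rise of ENaC and Aqp4, was not tested.

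**Figure D3:**
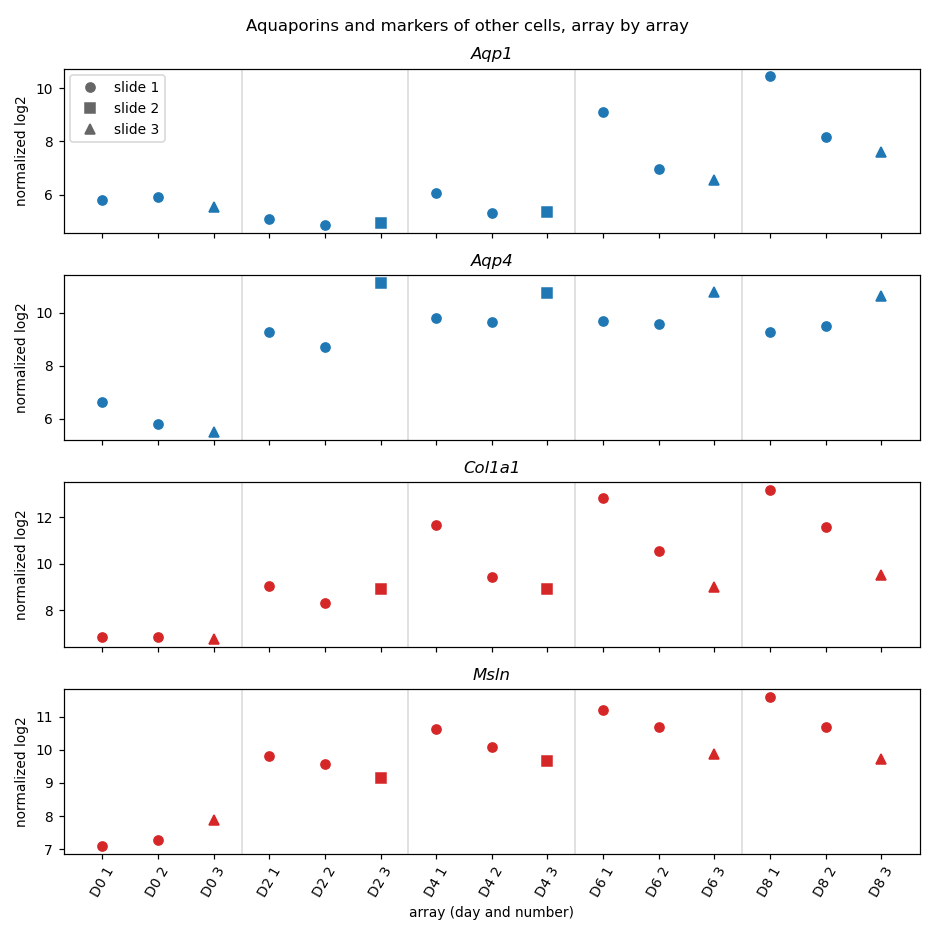
VSN log2 signal of Aqp1, Aqp4, the fibroblast marker Col1a1 and the mesothelial marker Msln (4 panels, each with its own log2 axis) on each of the 15 arrays, ordered by day and array number, with shapes for slides. Aqp1, Col1a1 and Msln are highest on array 1 at D6 and D8, and Aqp4 is highest on array 3 from D2 on.

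Each gene was also placed among the 7464 named genes that were detected on at least 3 arrays, by the root mean square difference over the 15 arrays of log2 values centred on each gene's own mean, so that 0 is an identical profile. For Scnn1b the nearest gene was Scnn1g at 0.265, followed by Mprip at 0.266 and Smarca1 at 0.297, where Scnn1b itself varied by 1.49 about its mean. For Scnn1g the nearest was Scnn1b, followed by Mprip at 0.331 and Vldlr at 0.343. The alpha subunit lay 1.08 from Scnn1b and 1.05 from Scnn1g, as its own course was flatter, and its nearest genes were Prmt2 at 0.128, Snx24 at 0.152 and Abhd4 at 0.152.

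Aqp4 had Nrep at 0.436, Sema3e at 0.628 and Sparc at 0.634 as nearest genes, against its own variation of 1.71. Aqp1 had C1qtnf5 at 0.617, Gldn at 0.625 and Il1rl1 at 0.637, against 1.60, and lay 2.15 from Aqp4. Atp1b1 was nearest to Sdcbp at 0.140, Stim1 at 0.149 and Niban2 at 0.151, and Atp1b3 to Gtf2b at 0.133, Cldnd1 at 0.134 and Bcl10 at 0.137. The 2 beta subunits lay 0.385 from each other, about as far as each varied about its own mean (0.378 and 0.425). The arrays and the slides are shared by all these profiles, and flat profiles give small differences.

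Beyond the 7 genes, most of the transport genes with a probe did not pass the test between D0 and D8, as for most probes of the array. Of all probes 18.0% were called between these days, and 35.5% of those detected on at least 3 arrays. Many genes of the lists below were detected on no array, so the list medians rest in part on background values. Of 10 other Na,K-ATPase subunits and FXYD proteins, small regulators of the pump, 2 rose, 2 fell and 6 did not pass, with a median change of -0.46, against -0.02 over all probes. Fxyd5 rose by 2.79 (adjusted p = 0.00366) and Fxyd2 was at least 1.61-fold higher at D8 (adjusted p = 0.0168). Fxyd3 fell by 3.06 (adjusted p = 4.34e-08), and Fxyd4 was at least 2.49-fold lower at D8 (adjusted p = 1.68e-05). Of the alpha subunits only Atp1a4 was analysed here.

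Of 10 other aquaporins 1 rose, 0 fell and 9 did not pass, with a median of -0.18. Aqp5, the water channel of the AT1 cell surface, rose by 3.10 (adjusted p = 9.28e-05), and 2.27 of this was present at D2 (adjusted p = 0.00127). On arrays 1, 2 and 3 its log2 values were 8.67, 8.71 and 7.75 at D0 and 11.72, 11.95 and 10.75 at D8. Array 3 was the lowest on both days, and the days did not overlap. Aqp2, Aqp6, Aqp8 and Mip, named after their values were seen, were detected on 0 arrays.

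A list of 23 genes held proteases, inhibitors and regulators of ENaC, and the other cation channels Asic1, Asic2, Asic3 and Cnga1. Of the 23, 2 rose, 5 fell and 16 did not pass, with a median of -0.18. Wnk1, a kinase that regulates ion transport, rose by 1.03 (adjusted p = 0.00345) and Nedd4, a ubiquitin ligase of the family that removes ENaC from the membrane, by 0.77 (adjusted p = 0.0266). Wnk4, another kinase of the WNK family, fell by 3.47 (adjusted p = 1.49e-06). Serpine2, an inhibitor of serine proteases, fell by 2.84 (adjusted p = 3.24e-05) and the deubiquitinase Usp2 by 2.35 (adjusted p = 0.0289). Only 1 array of D8 detected Usp2, so the size of its fall rests in part on background values.

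The other 2 that fell, named after their values were seen, were Hsd11b1, which makes active glucocorticoid, by 2.22 (adjusted p = 0.00199) and the WNK target kinase Stk39 by 1.96 (adjusted p = 9.80e-05). Likewise named afterwards, Sgk1, a kinase that holds ENaC at the membrane, had a change of -0.34 (SE 0.42, adjusted p = 0.704). By D2 Sgk1 had fallen by 1.31 (SE 0.42, adjusted p = 0.0412), with log2 means of 12.70 at D0, 11.39 at D2 and 12.89 at D4. The channel-activating protease Prss8 had a change of 0.13 (SE 0.28, adjusted p = 0.853).

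Of 28 chloride channels and partners of Cftr, 2 rose, 5 fell and 21 did not pass, with a median of -0.15. Clic5, a chloride intracellular channel protein that is also on the AT1 marker list, rose by 4.43 (adjusted p = 5.93e-08), and the lysosomal exchanger Clcn7 was at least 1.23-fold higher (adjusted p = 0.00824). The anion exchanger Slc26a4 was at least 9.10-fold lower at D8 (adjusted p = 2.60e-08) and the anion transporter Slc26a9 at least 3.10-fold lower (adjusted p = 0.000218). Ezr, which ties membrane proteins to actin, fell by 2.29 (adjusted p = 0.000187). The other 2 were named after their values were seen. Clic1 fell by 2.03 (adjusted p = 0.00205), and Clca2 was lower at D8 (adjusted p = 0.0322). Clca2 was detected on 2 arrays of D0 and 0 arrays of D8, so no bound is given for its fold.

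Of 18 ion carriers, exchangers and carbonic anhydrases (Car2, Car4 and Car12) 1 rose, 2 fell and 15 did not pass, with a median of -0.31. Slc34a2, the sodium-phosphate carrier of AT2 cells and a member of the AT2 marker list, fell by 8.40 (adjusted p = 1.06e-08) and the sodium-bicarbonate carrier Slc4a4 by 2.1 (adjusted p = 0.000107). Only 1 array of D8 detected Slc34a2, so the size of its fall rests in part on background values. The change of Slc34a2 was -9.27 within slide 1 and -6.67 within slide 3. Slc12a4, a potassium-chloride carrier, rose by 1.00 (adjusted p = 0.00184). Of 18 potassium channel genes 0 rose, 2 fell and 16 did not pass, with a median of -0.24. They were Kcnq1, by 3.95 (adjusted p = 2.57e-08), and its partner subunit Kcne2, at least 17.5-fold lower at D8 (adjusted p = 6.46e-07).

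**Figure D4:**
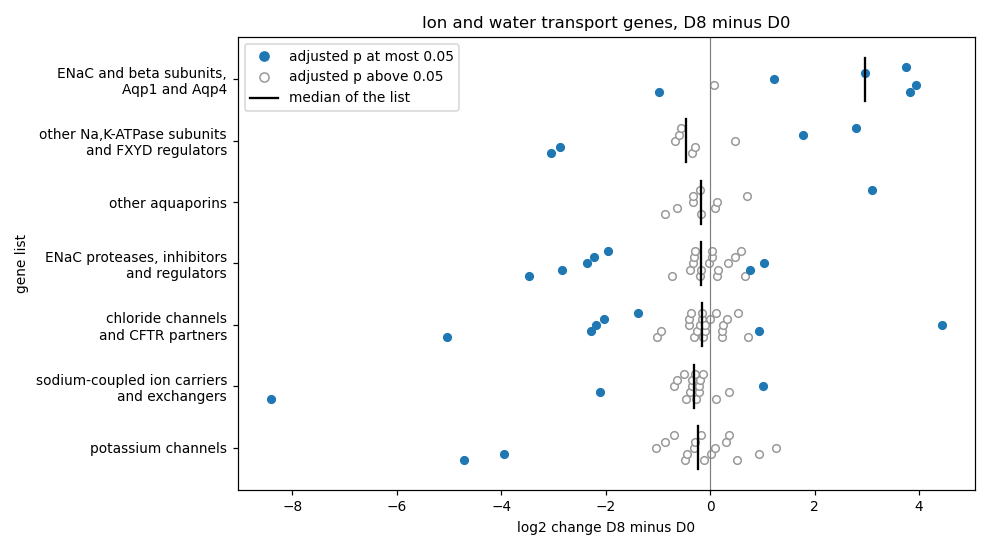
log2 change D8 minus D0 (horizontal axis) of every gene with a probe in the 7 measured genes and in 6 further lists of transport genes (rows), filled where the adjusted p is at most 0.05, with a bar at the median of each list; the height within a row carries no value. The 7 genes have a median of 2.97, or 2.03 with Aqp1 at its lower bound, and the medians of the other lists lie between -0.46 and -0.15. Each of the 7 genes was detected on at least 3 arrays. Detected on no array were 2 of 10 pump and FXYD genes, 4 of 10 aquaporins and 5 of 23 genes of the ENaC regulator list. The same held for 11 of 28 chloride genes, 10 of 18 genes of the carrier and exchanger list and 11 of 18 potassium channels.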

How the data were processed

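Raw intensity values and their detection p-values were deposited by the authors as BeadStudio output for 15 rat RatRef-12 arrays, without normalization between arrays. The authors' normalized log2 values (VSN through LUMI, limma in R 2.11.1 per the methods and the submitters' processing notes) were deposited too and served as an alternative. Human arrays were not used here. LUMI could not be run, so VSN was fitted anew to all probes by maximum likelihood (trimming quantile 0.9, 7 rounds, 5 slices) in Python 3.11.15, and its values correlated with the authors' at r = 0.971 to 0.981 per array over probes.

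limma 3.58.1 with statmod 1.5.0 in R 4.3.3 fitted 1 mean per day over 15 arrays, with Benjamini-Hochberg adjustment over 22523 probes and a threshold of 0.05. The pipeline was tested on simulated data. The probe table gives 1 gene for 13793 probes and no single gene for 8730. Replicate numbers follow accession order and pair nothing.

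Members, lists and tests were chosen with earlier results of these data known. Named were all members, their 3 nearest genes, up to 3 genes per direction and list among those called, with every array of the brighter day detected, and the 2 brightest markers of each list, besides those marked as named afterwards.

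Alternatives were neqc, quantile normalization, median scaling, the authors' values, detection filters, a fit of only those days, slide 1 alone, slide as a term or a random block, eBayes with trend and robust, stricter thresholds and leaving out each array. Protein sequences were not used here.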

Additional observations from a re-analysis of the deposited data

How the results depend on the processing

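The counts of the 7 genes called were recomputed under 29 alternatives (27 for the F test). Between D8 and D0 the count was 6 and stayed between 5 and 7, and between D2 and D0 it was 6 and stayed between 4 and 6. Between D4 and D2 the count of 0 became 1, each time Atp1b1, with neqc, quantile normalization, the authors' values, the detection filter at 0.01, slide as a term, slide as a random block, and trend with robust. Between D8 and D2 the count of 2 became 3 with neqc, the authors' values, slide as a term or a random block, and slide 1 arrays alone, 4 with quantile normalization, 0 with median scaling, 0 with only the days compared, and 1 at an adjusted p of 0.01 or a log2 change of at least 1. It lay between 1 and 2 when single arrays were left out. The F test called 4 of 7 with median scaling. The cause of these shifts was not tested, apart from the fewer arrays or stricter thresholds that some settings use by construction. The counts for D6 against D4 and D8 against D6 were 0 throughout. No called change of a gene turned its direction. Of the recomputed changes of single genes, 773 kept their side of the threshold, 16 gained a call and 23 lost it. Some of these settings could not move the size of a change. Each gene has 1 probe, so the mean of all its probes repeats the main size. Leaving out an array of a day not compared alters only the spread and the adjusted p. Atp1b1 between D8 and D0 was called with quantile normalization (0.35, adjusted p = 0.0340). All probes called between D4 and D2 numbered 314, and 550 to 978 under the settings in which Atp1b1 passed.

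No paired analysis was possible because the labels give no replicate numbers. Dim signal limits Aqp1 before D6 and Aqp4 at D0, where changes among undetected values have no order.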
